A study of Mus musculus with 18 samples.

Results

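The transcript response to a linoleic acid-ceramide emollient was compared between the treated skin and the lung of a mouse model of atopic dermatitis, in 12 of the 18 libraries of the series. The AD mice were female wild-type animals that received the vitamin D analogue MC903 (calcipotriol, 4 nmol) together with ovalbumin (50 µg) and were studied at 28 days, and the La-Cer mice received both agents together with the emollient. Each tissue had 3 AD and 3 La-Cer libraries, chosen by the tissue and treatment in the labels. Untreated control mice of the same sex and genotype, 3 libraries per tissue, entered the fits of the single tissues. The sources used here give neither strain nor age, and no route of ovalbumin or body site. Of 55401 genes in the tables, 15335 were expressed well enough in both tissues for the effects to be compared.

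Calcipotriol activates the vitamin D receptor of keratinocytes, and repeated use on mouse skin brings out epithelial alarmins, type 2 inflammation and infiltration by myeloid cells. Ovalbumin serves as the allergen, and sensitization through the inflamed skin can be followed by airway inflammation, a sequence called the atopic march. Ceramides that carry linoleic acid belong to the lipids that seal the outer epidermis, and the emollient is meant to supply them. The comparison asks which responses were shared by both tissues.

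Libraries held between 13472283 and 19338972 counts. Tissue labels matched their markers: the summed level of 10 alveolar type 2 markers was 23000 to 48600 CPM (counts scaled to library size, with TMM factors within a tissue) in lung and 46.8 to 86.6 in skin, and 12 keratinocyte markers summed to 8580 to 45200 CPM in skin and 18.1 to 68.4 in lung. Replicates were not equally tight. The median gene varied by an SD of 0.44 log2 units in AD skin, 0.381 in La-Cer skin, 0.24 in AD lung and 0.143 in La-Cer lung. AD lung replicate 1 stood apart from the other two for Fkbp5, Cdkn1a, Angptl4, Sema5a, Slc6a2 and Hbb-bs, and AD lung replicate 3 for interferon-response genes. Control lung replicate 1 stood apart in its length score, described below. It was left out of the fits without controls, but scaling and the choice of expressed genes used all libraries of a tissue. The removal of the length and GC trend, also described below, used them as well. All 3 La-Cer library codes recur in skin and lung, so these libraries may come from the same mice, and the tests treat them as independent.

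Genes with unlike effects outnumbered genes with like effects. The difference between the emollient effects (La-Cer minus AD in skin, minus the same in lung, called the interaction) passed edgeR's quasi-likelihood test at an adjusted p under 0.05 for 1886 genes, 12.3% of those tested. The effect was higher in skin for 832 genes (5.43%) and lower in skin for 1054 (6.87%). Among the 832, 816 had a positive skin estimate and a negative lung estimate, with medians of log2 1.12 and -0.66. Among the 1054, 1026 had the opposite signs, with medians of -0.98 in skin and 0.94 in lung. Over all tested genes 30.2% had the first pair of signs and 27.1% the second. A call made on the difference itself favours opposite signs, so these counts only describe the called genes. An unadjusted p under 0.05 in both tissues was reached by 14.5% of the 832 and 26.6% of the 1054. No gene was called alike, that is, with the same direction and the larger of both tissue p-values passing after adjustment, although 160 genes did so at an unadjusted p under 0.05. The mean effect over both tissues called 0 genes in edgeR (2903 at an unadjusted p under 0.05), against 821 in DESeq2, 112 in limma-voom and 900 when AD skin replicate 1 was left out.

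Calls in single tissues depended on the tool and the libraries. In skin 0 of 16956 genes passed in edgeR (0.0%, with 3199 at an unadjusted p under 0.05), against 910 in DESeq2. In lung 332 of 17272 passed (1.92%), 146 higher and 186 lower in La-Cer, and leaving out any 1 of the 6 AD and La-Cer lung libraries left 0 to 16, with Acta1 the 1 call left without La-Cer replicate 2. With limma-voom lung had 5948 calls against 1761 for the interaction, and with only the 6 lung libraries compared it had 4005. At an unadjusted p under 0.05 in each tissue, 47 genes were higher in La-Cer in both (0.306%), 113 were lower in both (0.737%) and 411 had opposite signs (2.68%). La-Cer and AD libraries did not overlap for 23.0% of genes in skin and 46.3% in lung, and in both tissues at once for 378 genes with the same direction (2.46%) and for 1120 with opposite directions (7.3%). Across genes the 2 effects had a Pearson r of -0.20 and a Spearman rho of -0.20. Genes are not independent replicates, and the effects share no library.

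**Figure D1:**
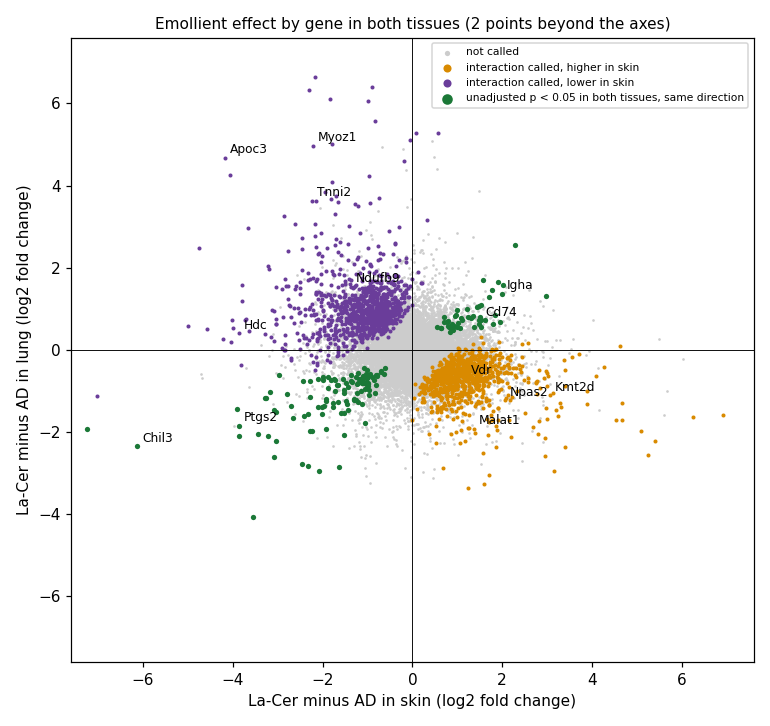
Emollient effect in skin (x axis) and lung (y axis) as log2 fold change, 1 point per gene tested in both tissues. Orange and purple points passed the interaction test (832 higher and 1054 lower in skin) and fill mainly the lower right and upper left quadrants, while the 160 genes with the same direction at an unadjusted p under 0.05 in both tissues lie in the other quadrants (1 of them passed the interaction and takes its colour). Another 2 points lie beyond the axes.

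Transcript length moved with the groups in opposite ways in the 2 tissues. A length score, the mean log2 CPM of the longest of 5 classes of exonic size minus that of the shortest, stood at -0.53 ± 0.29 in AD skin and 0.04 ± 0.28 in La-Cer skin (SD, n = 3). In lung it stood at 0.45 ± 0.21 in AD and -0.24 ± 0.14 in La-Cer. The emollient difference was 0.57 in skin and -0.70 in lung, 1.27 apart (exact two-sided permutation p = 0.01, the smallest possible being 0.005). Genes with a higher effect in skin had a median exonic size of 7673 bases and those with a lower effect 1904, against 4135 over all tested genes. With the trend of length and GC content removed from each library, 1019 genes passed (6.64%), 455 higher and 564 lower in skin, and 757 of them were among the 1886. Across genes the 2 effects then had a Pearson r of -0.27 and a Spearman rho of -0.28. At an unadjusted p under 0.05 in each tissue, 411 genes had opposite signs in that analysis too. The part of length in the calls was not tested, so the result with the trend removed is given beside many, but not all, of the lists and genes.

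**Figure D2:**
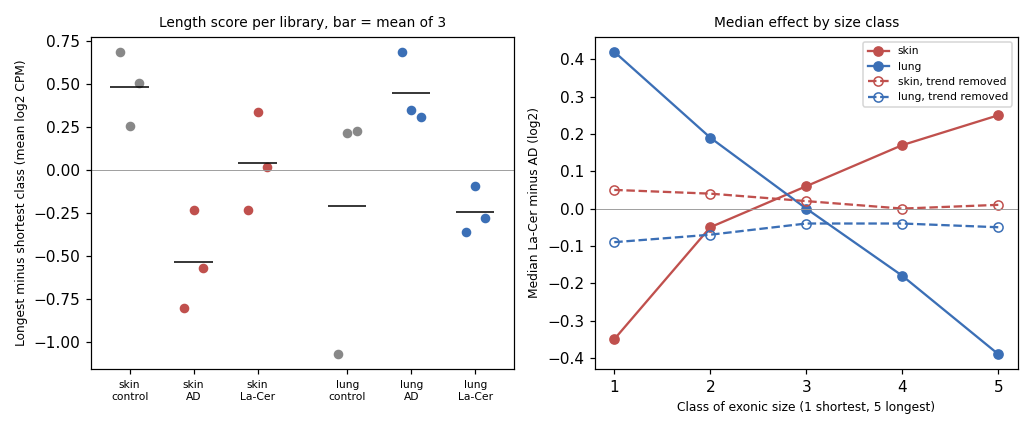
Left, length score of each library (mean log2 CPM of the longest minus the shortest class of exonic size) by tissue and group, with bars at the means of 3. Right, median emollient effect in each of 5 size classes, which runs from -0.35 to 0.25 in skin and from 0.42 to -0.39 in lung (solid lines) and is nearly flat with the trend removed (dashed lines).

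Single libraries also set how many genes passed. Leaving out La-Cer lung replicate 1 left 49 calls, La-Cer lung replicate 3 left 405 and AD lung replicate 1 left 620, while leaving out La-Cer skin replicate 1 gave 2607. Of the called genes listed at the end, Apoc3, Mup9, Ndufb9, Cox7c and Mrpl27-ps were the ones that passed in each of the 12 fits that left out 1 library. Cxcl2 and Hbb-bs passed in 2 of those fits, and Per2, Des, Ptger4, Timp4, Ccl11 and Oas2 in 3. Loxl1 passed in 4, Mki67 and Syt7 in 5, and Alox12 and Slc6a2 in 6. The rest of that list passed in 7 to 11. A fit over all 18 libraries, whose spread includes the controls, called 393 genes.

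The receptor of the applied vitamin D analogue was among the genes with unlike effects. Vdr (ENSMUSG00000022479, GRCm38 chromosome 15, 97854425 to 97910630), a nuclear receptor, stood at 66.9, 83.3 and 59.5 CPM in AD skin and at 150, 161 and 172 in La-Cer skin. In lung it stood at 10.7, 7.92 and 7.39 CPM in AD and at 5.78, 4.54 and 5.82 in La-Cer. Groups did not overlap in either tissue, with La-Cer above AD in skin and below it in lung, and control skin held 208, 217 and 118 CPM. The interaction was log2 1.89 ± 0.32 (SE; edgeR adjusted p = 0.0125, and 0.0227 once that trend was taken out). Cyp24a1, the vitamin D catabolic enzyme and a standard target of the receptor, stood at 16.3, 153 and 59.6 CPM in AD skin and at 0.62, 0.144 and 1.35 in La-Cer skin (edgeR adjusted p = 0.144). It had 2 counts over the AD and 2 over the La-Cer lung libraries and was not tested there. The vitamin D list had 5 of 8 genes tested in both tissues, with Vdr called higher and Cd14, a monocyte surface receptor, called lower in skin. Over all genes 5.43% were called higher and 6.87% lower. With the trend removed 1 of the 5 was called higher and 0 lower, against 2.97% and 3.68%.

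Among 18 clock genes, 3 had a higher effect in skin and 0 a lower one, against 5.43% and 6.87% of all genes, and 2 and 0 passed with the trend removed (2.97% and 3.68%). Their skin estimates were positive for 10 and negative for 8. Npas2, a transcription factor of the positive limb of the circadian clock, stood at 1.41, 2.0 and 0.722 CPM in AD skin and at 6.12, 7.57 and 3.61 in La-Cer skin, against 10.4, 3.27 and 6.26 in AD lung and 2.97, 2.55 and 2.97 in La-Cer lung (interaction 3.29 ± 0.69, edgeR adjusted p = 0.0169). Hlf, a clock-controlled PAR bZIP factor, had 46.7 to 48.3 CPM in AD lung and 22.3 to 27.4 in La-Cer lung, and 13.9 to 15.9 against 21.9 to 73.7 in skin (2.37 ± 0.52, adjusted p = 0.0179). Per2, a repressor of the clock, fell in lung from 129, 107 and 152 CPM to 45.9, 45.5 and 50.7 (lung log2 -1.45 ± 0.29, edgeR adjusted p = 0.0462), while its skin groups overlapped. Its interaction of 2.0 ± 0.57 passed at 0.0391 and missed with the trend removed at 0.0966. The repressor Nr1d1 rose in lung from 28, 48.3 and 35.9 to 247, 292 and 268 CPM (2.85 ± 0.40, edgeR adjusted p = 0.0307), with 76.9, 96.7 and 24.3 against 151, 189 and 54.6 in skin. Its interaction of -1.85 ± 0.68 missed (adjusted p = 0.0877). The sources used here state no hour of tissue collection, and its part in these values was not tested.

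Several histone methyltransferase genes had higher effects in skin. Kmt2d (ENSMUSG00000048154, chromosome 15, 98831669 to 98871204), which methylates histone H3 lysine 4 at enhancers, stood at 10.9, 25.9 and 3.68 CPM in AD skin and at 75, 205 and 59.4 in La-Cer skin. AD lung held 166, 209 and 220 CPM and La-Cer lung 71.2, 102 and 103. No group overlapped its partner, and the interaction was 4.18 ± 0.83 (edgeR adjusted p = 0.0148, trend removed 0.026). Setd1b, another H3 lysine 4 methyltransferase, had 6.6 to 8.66 against 14.0 to 31.3 CPM in skin and 34.5 to 48.1 against 20.4 to 30.2 in lung (2.25 ± 0.43). The H3 lysine 27 demethylase Kdm6b had 18.2 to 28.5 against 48.7 to 60.3 CPM in skin and 64.5 to 104 against 38.6 to 57.9 in lung (1.97 ± 0.37). With the trend removed both missed, at adjusted p = 0.0955 and 0.108. Of 18 genes of these complexes, 6 had a higher effect in skin and 1, Dpy30, a lower one, against 5.43% and 6.87% of all genes. With the trend removed 1 and 0 passed, against 2.97% and 3.68%, so that share was near the background. The list's median exonic size was 10007 bases.

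Long noncoding RNAs kept in the nucleus gave similar values. Malat1 (chromosome 19, 5795690 to 5802672), an abundant RNA of nuclear speckles, stood at 40.7, 111 and 89.2 CPM in AD skin, 259, 274 and 91.5 in La-Cer skin, 615, 723 and 961 in AD lung and 134, 218 and 252 in La-Cer lung. Lung groups were apart, while La-Cer skin replicate 3 lay within the AD range. Its interaction was 3.30 ± 0.64 (edgeR adjusted p = 0.0145, trend removed 0.0236). Xist, which coats the inactive X chromosome and overlaps an antisense gene, had 74.5 to 187 against 166 to 523 CPM in skin and 378 to 639 against 135 to 207 in lung (2.84 ± 0.60, adjusted p = 0.0173), with overlap in skin. All mice were female. Of 9 tested RNAs of this list, 2 had a higher effect in skin and 0 a lower one, with and without the trend. The shares over all genes were 5.43% and 6.87%, and 2.97% and 3.68% with the trend removed.

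Lipid, barrier and cytokine receptor genes added single calls to lists that otherwise had few. Over all genes 12.3% were called in either direction. Alox12, a lipoxygenase that oxygenates arachidonic acid, had 8.19, 8.0 and 3.75 CPM in AD skin and 17.8, 15.5 and 61.4 in La-Cer skin, with 5.79 to 7.39 against 4.49 to 4.88 in lung (2.68 ± 0.68, edgeR adjusted p = 0.0281). Ptger4, a prostaglandin E2 receptor, had an interaction of 1.78 ± 0.51 that missed with the trend removed (adjusted p = 0.0969). Cers6, a ceramide synthase, stood at 9.04 to 10.8 against 18.7 to 43.8 CPM in skin and at 34.0 to 58.7 against 21.0 to 33.2 in lung (2.28 ± 0.48, adjusted p = 0.0173). It was the 1 gene called among 32 of ceramide and sphingolipid synthesis, a smaller share than over all genes. The medians of that list were -0.10 in skin and -0.18 in lung. Cgn, the tight junction protein cingulin, had 3.97 to 10 against 16.4 to 60.0 CPM in skin and overlapping groups in lung (2.77 ± 0.66, adjusted p = 0.0231), and was the 1 called gene of 20 for tight junctions and desmosomes. Il1rn, the interleukin 1 receptor antagonist, had 29.0 to 32.9 against 52.1 to 78.0 CPM in skin and 6.32 to 10.2 against 3.34 to 5.62 in lung (1.83 ± 0.40, adjusted p = 0.0176). Il6ra, the ligand-binding chain of the interleukin 6 receptor, had 10.8 to 22.2 against 27.2 to 119 CPM in skin and 79.5 to 117 against 41.7 to 67.8 in lung (2.7 ± 0.66, adjusted p = 0.0243). All but Ptger4 passed with the trend removed, at adjusted p between 0.0352 and 0.048 for Alox12, Il1rn and Il6ra, 0.0378 for Cers6 and 0.034 for Cgn.

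Other large differences toward skin came from genes with no list. Pappa, a metalloprotease that cleaves IGF-binding proteins, had 0.978 to 2.09 against 2.2 to 4.41 CPM in skin and 2.98 to 8.29 against 0.741 to 1.27 in lung (3.39 ± 0.72). Sema5a, an axon guidance semaphorin, and Slc6a2, the noradrenaline transporter, had interactions of 3.32 ± 0.73 and 3.77 ± 0.97. AD lung replicate 1 held 189 CPM of Sema5a against 51.8 and 33.6 in replicates 2 and 3, and 97.7 CPM of Slc6a2 against 22.9 and 13.3. Without that library neither direction turned, since the lowest interaction over the 12 fits was 2.22 for Sema5a and 2.46 for Slc6a2. Syt7, a calcium sensor of membrane fusion, was high in La-Cer skin replicate 3 (56.1 CPM against 5.97 and 7.18), and its interaction of 3.54 ± 0.97 ran down to 1.73 over those fits. Adam1a, a metalloprotease-disintegrin gene, had 0.289 to 0.55 against 1.18 to 5.22 CPM in skin (3.60 ± 0.78), and the locus of Mir5125 had 0 to 0.611 against 1.01 to 4.45 (4.68 ± 1.02). That locus spans 79 bases, and its reads cannot be told from those of a longer overlapping transcript. Slc6a2 and Syt7 missed with the trend removed, at adjusted p = 0.0574 and 0.0888. Mki67, the proliferation marker Ki-67, had 12 to 20.3 against 7.51 to 9.32 CPM in lung and overlapping groups in skin (1.51 ± 0.41, edgeR adjusted p = 0.0359, trend removed 0.201). It was the 1 called gene of 25 for cell division, against 12.3% of all genes.

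**Figure D3:**
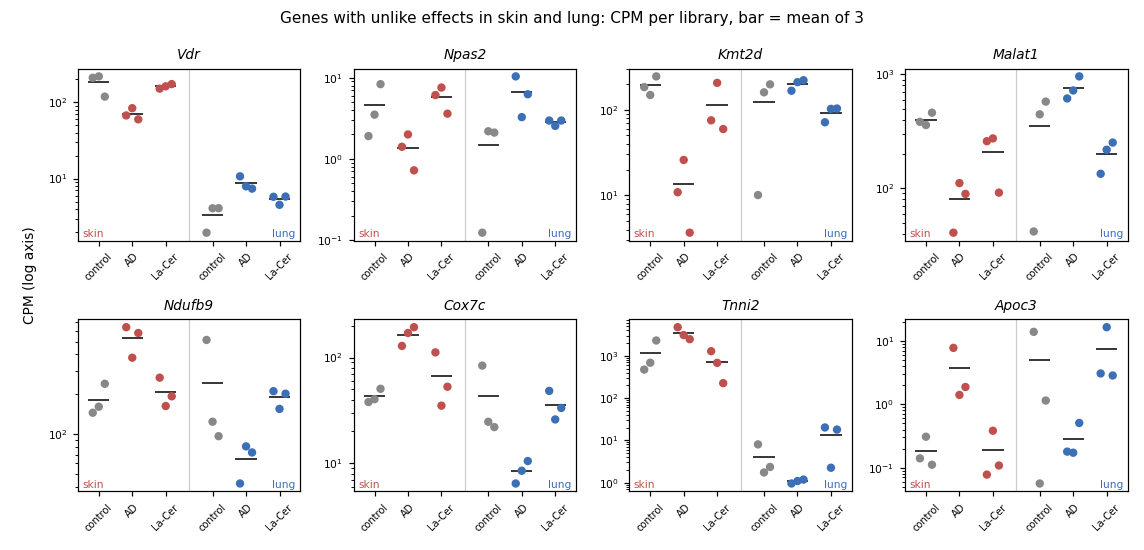
CPM on a log axis in each library of skin (left of each panel) and lung (right) for 8 genes that passed the interaction test, with controls in grey and bars at the means of 3. The upper 4 genes, Vdr to Malat1, lie higher in La-Cer than in AD in skin and lower in lung, and the lower 4, Ndufb9 to Apoc3, show the opposite.

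Nuclear-coded subunits of the respiratory chain were the most complete group with lower effects in skin. All 32 tested subunits had a negative estimate in skin and a positive one in lung, with medians of -1.06 and 0.97, against 0.02 and -0.03 over all genes. The interaction called 21 of 32 lower in skin and 0 higher, and with the trend removed 13 and 0, against a background of 6.87% and 3.68%. Ndufb9 (ENSMUSG00000022354, chromosome 15, 58933756 to 58939488), a subunit of complex I, stood at 643, 378 and 581 CPM in AD skin and at 267, 163 and 193 in La-Cer skin. In lung it stood at 42.3, 80.7 and 72.6 in AD and at 211, 155 and 202 in La-Cer. The groups were apart in both tissues (interaction -2.90 ± 0.44, edgeR adjusted p = 0.00905, trend removed 0.0151). Cox7c, a subunit of complex IV, had 129, 171 and 194 against 112, 35.1 and 53 CPM in skin and 6.44, 8.50 and 10.5 against 48.4, 26 and 33.4 in lung (-3.39 ± 0.56, adjusted p = 0.0114). Another complex IV subunit, Cox7b, had 543 to 759 against 155 to 317 CPM in skin and 54.0 to 94.2 against 126 to 172 in lung (-2.46 ± 0.43). The 13 subunits coded in the mitochondrial genome did not follow: all 13 had negative estimates in both tissues, medians -0.64 and -0.72, and 0 were called. With the trend removed their skin median was 0.41. Nuclear-coded subunits had a median exonic size of 1671 bases. Without La-Cer lung replicate 1, 2 of the 32 passed.

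Cytosolic ribosomal proteins gave a smaller difference of the same direction, with fewer calls once the trend of length and GC content was removed. Rplp2, a protein of the ribosomal stalk, had 3140, 2510 and 5610 against 3130, 1080 and 1770 CPM in skin, where the groups overlapped. It rose in lung from 189, 260 and 281 to 855, 631 and 795 CPM (1.64 ± 0.33, edgeR adjusted p = 0.0457), and the interaction was -2.56 ± 0.58 (adjusted p = 0.0193, trend removed 0.0435). Rplp1, its partner in the stalk, also rose in lung (1.60 ± 0.28, edgeR adjusted p = 0.0367), and its interaction of -2.02 ± 0.46 missed with the trend removed (0.103). For Rpl32, of the large subunit, the interaction was -2.19 ± 0.47 and missed likewise (0.14). Of 34 genes, 15 had a lower effect in skin and 0 a higher one, against 6.87% and 5.43% of all genes. With the trend removed these counts were 3 and 1, against 3.68% and 2.97%. Ribosomal protein genes have many processed copies in the genome, so their reads may be split between loci.

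Skeletal muscle genes had list medians of -1.69 in skin and 3.18 in lung. Tnni2 (chromosome 7, 142441808 to 142444410), the inhibitory troponin of fast fibres, stood at 4770, 3100 and 2480 CPM in AD skin and at 1290, 683 and 226 in La-Cer skin. In lung it stood at 0.954, 1.09 and 1.18 in AD and at 20.2, 2.25 and 18 in La-Cer, and groups were apart in both tissues (interaction -5.87 ± 1.04, edgeR adjusted p = 0.0131). Myoz1, a Z-disc protein, had 507 to 1040 against 41.3 to 305 CPM in skin and 0.113 to 0.119 against 0.613 to 5.67 in lung (-7.18 ± 1.24). Myoz2 and Csrp3, Z-disc proteins of slow and cardiac fibres, had interactions of -5.36 ± 1.0 and -5.19 ± 1.02. Acta1, skeletal muscle actin, rose in lung from 1.73, 1.26 and 0.677 to 110, 6.59 and 131 CPM (6.07 ± 1.02, edgeR adjusted p = 0.0367), while its skin groups overlapped (2250 to 12900 against 1080 to 8330). Mylpf, a fast myosin light chain, had an interaction of -5.68 ± 1.15, and Des, the intermediate filament desmin of all muscle, one of -3.06 ± 0.86. Of 16 markers, 10 had a lower effect in skin and 0 a higher one, against 6.87% and 5.43% of all genes. With the trend removed these counts were 7 and 0, against 3.68% and 2.97%. With limma-voom 1 of the 16 passed, and without La-Cer lung replicate 1 also 1. Summed over the list, skin libraries held 14000 to 45700 CPM in AD and 3380 to 23500 in La-Cer, and lung libraries 90.9 to 422 in AD and 331 to 910 in La-Cer. Cardiac markers moved in lung as well, with summed levels of 141, 1090 and 2790 CPM in AD and 3520, 1850 and 3360 in La-Cer. In bulk tissue, more cells of a type and more RNA per cell cannot be told apart, and the amount of muscle in each piece of tissue was not tested.

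Several small groups had lower effects in skin. Apoc3 (chromosome 9, 46232933 to 46235636), an apolipoprotein of liver and intestine, stood at 7.82, 1.41 and 1.88 CPM in AD skin, 0.0775, 0.383 and 0.108 in La-Cer skin, 0.179, 0.172 and 0.508 in AD lung and 3.08, 16.6 and 2.86 in La-Cer lung. Its interaction of -8.83 ± 1.38 (edgeR adjusted p = 0.00926, trend removed 0.0205) rests on low counts in each tissue. Mup9, a major urinary protein gene with near-identical neighbours that make its reads uncertain, had 30.6 to 67.8 against 4.63 to 15.5 CPM in skin and 0.113 to 0.23 against 0.953 to 4.90 in lung (-5.78 ± 1.04). La-Cer lung replicate 2 was the highest library for both genes. The pseudogene Mrpl27-ps had 6.59 to 10 against 1.40 to 2.06 CPM in skin and rose in lung from 0.287 to 0.358 up to 2.01 to 3.47 (interaction -5.24 ± 0.57, edgeR adjusted p = 0.00205), and its parent gene may share reads.

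Some mast cell genes had lower effects in skin. Hdc, the histidine decarboxylase that makes histamine, stood at 1.34, 8.44 and 25.3 CPM in AD skin and at 0.465, 1.10 and 0.807 in La-Cer skin, against 63.2, 97.3 and 79.4 in AD lung and 112, 98.6 and 107 in La-Cer lung (-4.23 ± 0.98, edgeR adjusted p = 0.0205, trend removed 0.0289). The chymase Cma1 had 9.29, 19.5 and 30 against 6.90, 2.30 and 2.96 CPM in skin and 0.656, 2.41 and 1.92 against 3.93, 3.01 and 3.34 in lung (-3.32 ± 0.78, trend removed adjusted p = 0.0605). Of 9 tested markers of mast cells and basophils, 3 had a lower effect in skin and 0 a higher one, against 6.87% and 5.43% of all genes, and with the trend removed 1 and 0, against 3.68% and 2.97%. Their summed level was 50.3 to 96.2 CPM in AD skin and 19.3 to 56.1 in La-Cer skin, so the skin groups overlapped. Ccl11, the eosinophil attractant eotaxin, had 8.37 to 8.80 against 1.83 to 4.50 CPM in skin, with overlapping lung groups (-2.13 ± 0.62, adjusted p = 0.0431). With the trend removed its adjusted p was 0.469. It was the 1 called gene of 17 for type 2 inflammation, against 12.3% of all genes, and with the trend removed 0 of the 17 passed.

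Some matrix genes of fibroblasts also had lower effects in skin. Dcn, the collagen-binding proteoglycan decorin, stood at 193, 219 and 304 CPM in AD skin and at 76.7, 67.2 and 119 in La-Cer skin, with 111, 118 and 169 against 244, 123 and 206 in lung (-1.97 ± 0.46, edgeR adjusted p = 0.0206, trend removed 0.0227). Its relative Lum, lumican, had 38.0 to 112 against 6.57 to 19.8 CPM in skin and overlapping lung groups (-2.98 ± 0.75, trend removed adjusted p = 0.0578). Loxl1, which cross-links elastin, had its difference in lung, 34.2, 75 and 47.8 against 114, 163 and 131 CPM (-1.86 ± 0.47, trend removed adjusted p = 0.0227). Timp4, a metalloproteinase inhibitor, had 12.5 to 31.9 against 2.49 to 10 CPM in skin (-2.33 ± 0.68, adjusted p = 0.0439). Of 25 genes for collagens and matrix, 4 had a lower effect in skin and 0 a higher one in both analyses, against 6.87% lower among all genes and 3.68% with the trend removed, and 0 passed without AD lung replicate 1, without La-Cer skin replicate 2 or without La-Cer lung replicate 1 or 3.

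Globin genes had lower effects in skin, where their groups overlapped. Hba-a2 stood at 7.15, 16.2 and 2.89 against 4.19, 2.01 and 1.94 CPM in skin and at 14.9, 1.66 and 3.39 against 114, 44.7 and 108 in lung (-5.45 ± 1.09, edgeR adjusted p = 0.0148, trend removed 0.0475). Hbb-bs had 238, 9.93 and 12.9 CPM in AD lung and 704, 327 and 658 in La-Cer lung (-4.40 ± 1.35, adjusted p = 0.0498, trend removed 0.183). Both have near-identical copies, so the reads of each are uncertain. The 9 red cell markers summed to 449, 57 and 63 CPM in AD lung, 1270, 634 and 1170 in La-Cer lung and 4720, 122 and 1020 in control lung, so these sums varied widely, also among controls.

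Interferon-response genes were high in 1 AD lung library. Oas2, which senses double-stranded RNA, stood at 4.35, 15.9 and 77.1 CPM in AD lung and at 2.92, 3.37 and 5.45 in La-Cer lung, with 0.733, 1.18 and 0 against 3.18, 2.68 and 0.484 in skin (4.75 ± 1.44, edgeR adjusted p = 0.0478, trend removed 0.0652). Irf7, a factor that amplifies the response, had 12.3, 33 and 241 against 15.4, 16.7 and 17.6 CPM in lung and missed (2.86 ± 1.03, adjusted p = 0.0819). All 21 tested genes had negative lung estimates (median -1.88), while the skin median was 0.01. The interaction called 1 of 21, against 12.3% of all genes, and 0 with the trend removed. The summed level over 22 genes was 375, 678 and 2730 CPM in AD lung and 454 to 491 in La-Cer lung, so replicate 1 lay below and replicate 3 far above the La-Cer range.

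**Figure D4:**
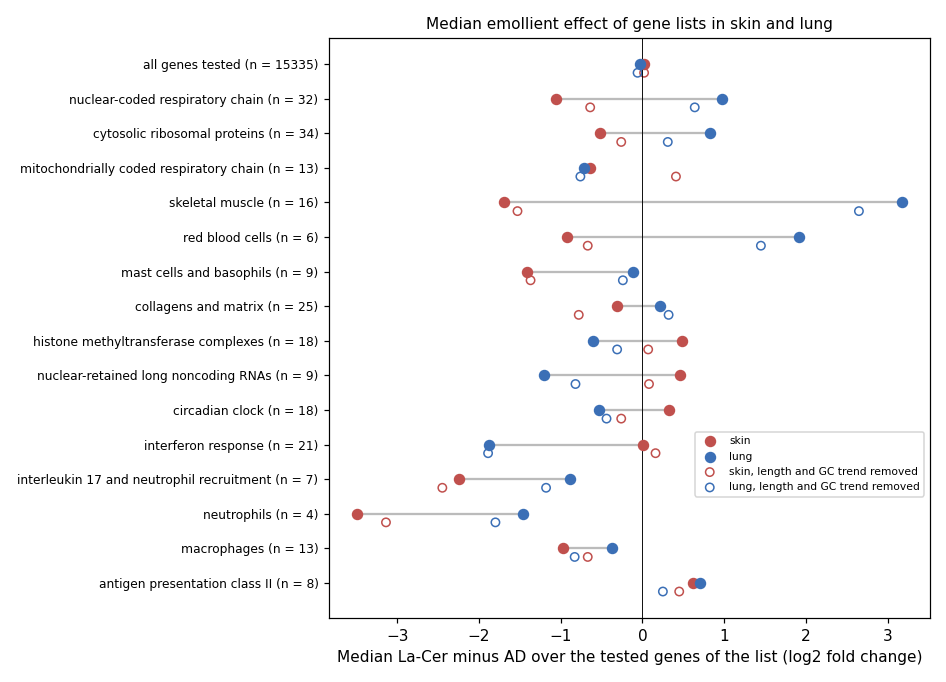
Median emollient effect (log2 fold change, La-Cer minus AD) of gene lists in skin (red) and lung (blue), with all genes tested at the top and open points for the analysis with the length and GC trend removed. Nuclear-coded respiratory chain, ribosomal, muscle and red cell genes lie left of 0 in skin and right of it in lung. Neutrophil, macrophage and interleukin 17 genes lie left of 0 and class II genes right of it in both tissues. Filled points of the mitochondrially coded respiratory chain lie left of 0 in both tissues.

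Genes with the same direction were named for the smallest p-values in both tissues and for groups without overlap, so their direction is a description. Ptgs2, Cxcl2 and Ccl3 were among those with lower levels in La-Cer mice. Ptgs2 (ENSMUSG00000032487, chromosome 1, 150100031 to 150108227), the inducible cyclooxygenase COX-2, stood at 2.14, 7.18 and 33.6 CPM in AD skin and at 0.233, 1.82 and 0.807 in La-Cer skin. It fell in lung from 51.3, 39.5 and 38.9 to 11.2, 13.4 and 11.4 CPM, next to 14.5, 10.5 and 10.7 in control lung. Groups did not overlap in either tissue. The change was -1.84 ± 0.21 in lung (edgeR adjusted p = 0.0137) and -3.86 ± 1.04 in skin (adjusted p = 0.149), and the interaction did not pass (-1.99 ± 1.06, adjusted p = 0.224).

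Cxcl2 (chromosome 5, 90903871 to 90905938), a chemokine that draws neutrophils, stood at 0.978, 46.9 and 193 CPM in AD skin and had 0 counts in all 3 La-Cer skin libraries. It fell in lung from 2.74, 2.76 and 3.78 to 0.424, 0.46 and 0.212 CPM (-3.06 ± 0.45, edgeR adjusted p = 0.031). In skin, 3318 AD counts against 0 make it at least 1330-fold lower in La-Cer, with a floor of 3 counts over the group. Without AD skin replicate 3, left out by a choice made after seeing the data, it was at least 380-fold lower. Floors and intervals cover counting error only. Its interaction also passed (edgeR adjusted p = 0.0446), but in 2 of the 12 fits that left out 1 library, and it missed with the trend removed (0.0859). The direction was shared, and whether the size differed is not settled by these values. Cxcl2 was the 1 gene of the 160 with the same direction that passed the interaction. Ccl3, a chemokine for monocytes and other leukocytes, had 0.367, 16.8 and 38.9 against 0.155, 0.192 and 0 CPM in skin and 2.39, 5.34 and 2.82 against 0.53, 1.53 and 0.688 in lung, where the change was -1.93 ± 0.51 (edgeR adjusted p = 0.0716). AD skin replicate 1 was far below the other two for Cxcl2 and Ccl3. DESeq2 called 2 genes alike, Cxcl2 and Chil3.

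Promoters of these 3 inducible genes are shown because the genes had the same direction in both tissues. The 250 bases before the RefSeq start (GRCm38.p6, gene strand) are printed 5′ to 3′, with matches to the NF-κB consensus of 10 bases in capitals. This pattern is its own reverse complement, so a match reads on both strands, and 4.83% of 27025 promoters of the same length hold one. Cxcl2 has 1 match, starting 97 bases before the RefSeq start, and Ccl3 and Ptgs2 have 0 in this window. The windows are chr5:90903649-90903898 on the plus strand, chr11:83649379-83649628 on the minus strand and chr1:150099781-150100030 on the plus strand.
Cxcl2: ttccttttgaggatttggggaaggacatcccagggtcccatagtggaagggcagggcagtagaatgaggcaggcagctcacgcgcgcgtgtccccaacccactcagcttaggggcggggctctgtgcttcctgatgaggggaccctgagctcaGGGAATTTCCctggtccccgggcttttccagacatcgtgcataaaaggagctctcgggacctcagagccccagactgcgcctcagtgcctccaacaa
Ccl3: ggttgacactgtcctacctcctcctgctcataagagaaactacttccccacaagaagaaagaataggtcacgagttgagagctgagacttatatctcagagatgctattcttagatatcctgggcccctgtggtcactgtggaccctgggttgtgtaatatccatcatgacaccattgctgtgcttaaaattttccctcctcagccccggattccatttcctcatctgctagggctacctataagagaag
Ptgs2: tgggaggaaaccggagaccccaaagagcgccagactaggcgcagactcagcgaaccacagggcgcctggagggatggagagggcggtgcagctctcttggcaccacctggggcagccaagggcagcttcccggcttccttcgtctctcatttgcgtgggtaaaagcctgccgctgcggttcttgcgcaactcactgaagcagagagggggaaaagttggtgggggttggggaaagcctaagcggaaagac

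Some genes of myeloid cells had lower levels in La-Cer mice in both tissues. Chil3 (chromosome 3, 106147554 to 106167564), the chitinase-like protein Ym1 of alternatively activated macrophages, stood at 0.916, 2.37 and 13.6 against 0, 0.144 and 0.0538 CPM in skin and at 397, 612 and 117 against 62.2, 106 and 52.3 in lung. The groups were apart in both tissues, and the lung change of -2.35 ± 0.53 had an edgeR adjusted p of 0.0553. Chil3 has a close relative whose reads may be shared. Mmp12, the macrophage elastase, had 1.10, 1.33 and 10.5 against 0.543, 0.192 and 0.161 CPM in skin and 7.70, 31.3 and 20.6 against 4.51, 5.46 and 3.97 in lung. Ms4a6d and Ms4a4a, membrane proteins of myeloid cells, had lung changes of -1.67 ± 0.46 and -1.17 ± 0.33 and skin changes of -2.67 ± 0.66 and -3.29 ± 1.0. The mannose receptor Mrc1 had 15.3 to 80.9 against 2.91 to 12.8 CPM in skin and 62.4 to 126 against 57.6 to 66.3 in lung. Of 13 macrophage markers, 11 had negative estimates in skin and 12 in lung, and 2 were lower in both at an unadjusted p under 0.05, as were 0.737% of all genes. Cd14, named here after its values were seen, had unlike effects, -2.83 in skin and 0.15 in lung. The summed macrophage markers were 279 to 402 CPM in AD skin and 77 to 234 in La-Cer skin, and 4290 to 6910 against 4770 to 6040 in lung, where the groups overlapped. Mllt3, a subunit of the super elongation complex, had 42.6 to 85.0 against 10.1 to 29.1 CPM in skin and 27.9 to 50.0 against 19.1 to 21.4 in lung.

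Neutrophil and acute-phase genes had negative estimates in both tissues. S100a8, a subunit of the alarmin calprotectin, had 28.7, 125 and 353 against 8.14, 2.63 and 22.7 CPM in skin and 68.6, 45.2 and 18.3 against 15.9, 15 and 17.6 in lung, with unadjusted p = 0.003 and 0.0275. Its partner S100a9 had 11.9, 92 and 439 against 8.76, 3.64 and 8.61 CPM in skin, but overlapping groups in lung (unadjusted p = 0.258), and an interaction of -4.00 ± 1.23 (edgeR adjusted p = 0.0507). Saa3, an acute-phase apolipoprotein, had 6.35 to 59.5 against 1.53 to 4.20 CPM in skin and 4.65 to 31.4 against 3.52 to 4.35 in lung. Lcn2, the siderophore-binding lipocalin, had overlapping lung groups. Csf3r, the receptor for G-CSF, had 40.7, 40.5 and 16.3 against 9.34, 13.2 and 12.8 CPM in lung. Cxcr2, the receptor of Cxcl2, fell in lung from 25, 30.8 and 9.87 to 4.56, 5.92 and 4.50 CPM (-2.13 ± 0.40, edgeR adjusted p = 0.0415), while its skin groups overlapped. Il1b had 0.794, 16.7 and 56 against 1.55, 0.527 and 0.754 CPM in skin and overlapped in both tissues (interaction -4.13 ± 1.35, adjusted p = 0.0603). All 4 neutrophil markers tested in both tissues had negative estimates in each, with medians of -3.50 and -1.46. Of these, 2 were lower in both at an unadjusted p under 0.05, as were 0.737% of all genes. The sum over 12 such markers was 44.9, 226 and 804 CPM in AD skin and 8.14 to 34.3 in La-Cer skin, so AD skin varied widely, and lung groups overlapped (144 to 410 against 183 to 310).

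**Figure D5:**
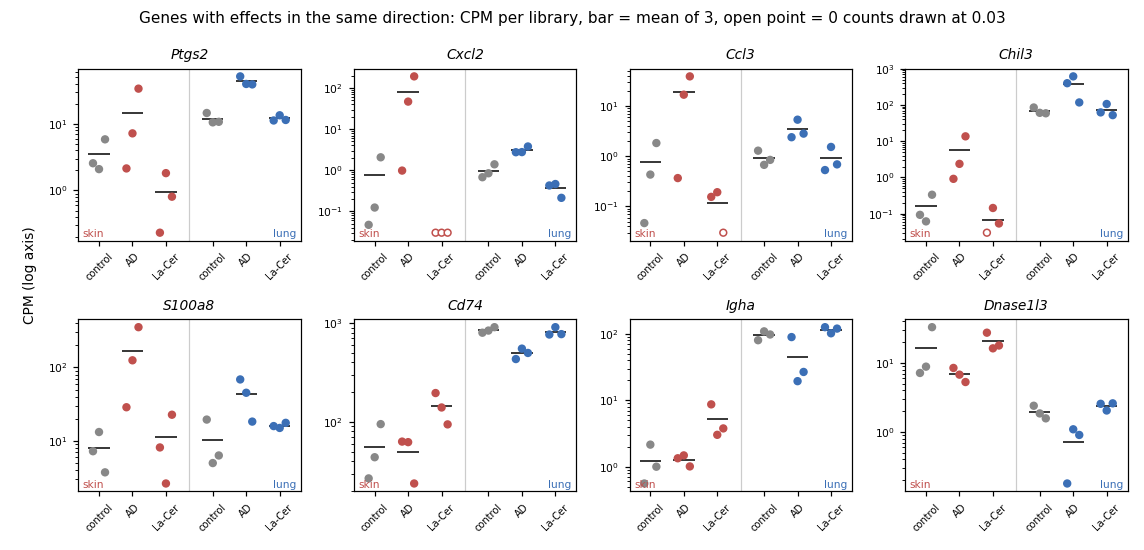
CPM on a log axis in each library of skin (left of each panel) and lung (right) for 8 genes with the same direction in both tissues, with controls in grey, bars at the means of 3 and open points for libraries with 0 counts. Ptgs2, Cxcl2, Ccl3, Chil3 and S100a8 lie lower in La-Cer than in AD in both tissues, and Cd74, Igha and Dnase1l3 lie higher.

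Single genes of antigen presentation and antibody had higher levels in La-Cer mice in both tissues, 1 of 8 class II genes and 1 of 5 B and plasma cell markers at an unadjusted p under 0.05 in each. Over all genes 0.306% were higher in both by that measure. Cd74, the invariant chain of MHC class II, stood at 63.2, 62.4 and 23.8 CPM in AD skin and at 196, 140 and 94.4 in La-Cer skin, and at 433, 552 and 499 against 767, 910 and 774 in lung (skin 1.52 ± 0.52, lung 0.72 ± 0.20, unadjusted p = 0.0145 and 0.0056). Control lung held 800, 841 and 910 CPM. H2-Ab1, a class II beta chain, rose in lung from 7.81, 14.6 and 15.2 to 34.8, 35.3 and 31.9 CPM (1.44 ± 0.28, edgeR adjusted p = 0.0426), while its skin groups overlapped. Of 8 class II genes, 6 had positive estimates in skin and 7 in lung, and 0 passed the interaction, against 12.3% of all genes. Igha, the constant region of immunoglobulin A, had 1.34, 1.48 and 1.01 against 8.68, 3.02 and 3.77 CPM in skin and 89.4, 19.4 and 26.7 against 126, 102 and 120 in lung (unadjusted p = 0.00924 and 0.0202). Ighm, that of immunoglobulin M, rose in lung from 42.3, 69.2 and 45.5 to 192, 116 and 179 CPM (1.63 ± 0.33, edgeR adjusted p = 0.0465), with overlapping skin groups. With the trend removed the lung estimates were 0.13 for Cd74, 1.01 for H2-Ab1, 0.98 for Igha and 1.16 for Ighm. Their edgeR adjusted p then lay between 0.0533 and 0.722.

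The remaining genes that were higher in both had unlike functions. Dnase1l3, a secreted DNase that digests chromatin, had 5.27 to 8.43 against 16.2 to 27.3 CPM in skin and 0.179 to 1.09 against 2.04 to 2.59 in lung. Jund, a subunit of AP-1, had 39.6 to 166 against 302 to 375 CPM in skin and 198 to 219 against 317 to 391 in lung. Banp, a chromatin-binding nuclear protein, had 5.99 to 12.1 against 13.2 to 28.5 CPM in skin and 22.6 to 26.0 against 30.9 to 41.1 in lung. Spata5l1, an AAA ATPase, had estimates of 1.52 ± 0.50 in skin and 1.10 ± 0.26 in lung. Cd82, a tetraspanin, and Olfm2, a secreted olfactomedin, had skin estimates of 1.02 ± 0.36 and 1.22 ± 0.42 and lung estimates of 0.66 ± 0.19 and 0.99 ± 0.36. Lung estimates with the trend removed were 1.77 for Dnase1l3, 0.12 for Jund, 0.60 for Banp, 0.41 for Spata5l1, 0.31 for Cd82 and 0.56 for Olfm2. With the trend removed, 50 of the 160 genes with the same direction kept an unadjusted p under 0.05 in both tissues, and 117 did so in all.

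Genes of alarmins, lipid handling and stress did not pass. Tslp, the epithelial alarmin that drives this model in mice, had 4.09, 4.29 and 5.20 against 1.78, 2.78 and 0.861 CPM in skin and 7.87, 8.21 and 6.26 against 3.82, 3.11 and 4.71 in lung. Groups were apart in both tissues, with La-Cer lower (unadjusted p = 0.209 and 0.0121). Il33, another alarmin, overlapped in both. Plin2, a lipid droplet coat protein, had 420, 424 and 506 against 630, 131 and 156 CPM in skin, where La-Cer replicate 1 lay above the AD range and the other two below it. Angptl4 and Cd36, targets of PPAR factors, had interactions of 0.65 ± 1.22 and -0.56 ± 0.69. Of 27 PPAR and fatty acid oxidation genes 0 passed the interaction, against 12.3% of all genes. Fkbp5, a glucocorticoid target, had 238, 57.1 and 51.2 against 28.3, 37.6 and 30.9 CPM in lung (interaction 1.88 ± 0.66, edgeR adjusted p = 0.0768), and Cdkn1a, the cell cycle inhibitor p21, had 492, 70.7 and 79.3 against 88.7, 108 and 92. AD lung replicate 1 alone was high for both. Among clock outputs, Dbp had 12.9, 45.2 and 45.4 against 112, 107 and 113 CPM in lung (interaction -1.19 ± 0.80), and Per1 overlapped in both tissues.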

How the data were processed

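For each tissue the authors deposited raw read counts for every Ensembl gene, which are whole numbers. FPKM columns deposited beside them were left unused. Per the submitters' processing notes, bcl2fastq 2.17.1.14, cutadapt 1.9.1 and the build GRCm38 were used. Libraries came from a SMARTER kit, per the labels' protocols. No aligner, counter or strand setting is given in the sources used here. Reads of antisense, overlapping or copied genes are therefore uncertain.

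Counts were scaled by TMM within each tissue and tested with edgeR 4.0.16 in R 4.3.3 (filterByExpr in both tissues, robust quasi-likelihood fit). The interaction and the mean effect used the 12 AD and La-Cer libraries, and each tissue its 9 libraries. P-values were adjusted by Benjamini-Hochberg over all genes tested, with a threshold of 0.05, and effects are log2 ± SE. Nothing says that a group's libraries came from repeated experiments, so p-values measure the spread between these 3 mice per group. Alternatives were RLE, TMM over both tissues, DESeq2 1.42.0, no filter, 18 or 6 libraries, limma-voom 3.58.1 with library weights, the replicate number as a block, removal of the trend of exonic size and GC content (transcripts of GENCODE vM21), and leaving out each AD and La-Cer library.

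The genes and the 51 lists (773 symbols, all found) were chosen with earlier results of these data known. Among genes with at least 1 CPM on average in each tissue, and leaving out predicted and clone names, the rule took 8 per direction with unlike and 8 with like effects and no overlap in either tissue. It added up to 3 per list by the interaction p and up to 2 per list by the larger tissue p, plus 18 always reported, and those described come from these. On simulated counts for 15335 genes, the interaction test recovered 51 of 200 genes changed 4-fold in 1 tissue, with 5 calls among unchanged genes.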

Additional observations from a re-analysis of the deposited data

Results flagged for a closer look

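By the interaction term of edgeR's quasi-likelihood fit, the emollient effect differed between skin and lung for 49 of the 85 genes described. Many genes were named for a large interaction or a small interaction p, so this count only describes the genes chosen. Over all 15335 tested genes 1886 passed (12.3%). The values here are the difference in the emollient effect in log2 units (La-Cer minus AD in skin, minus the same in lung). It was higher in skin for the regulators and noncoding RNAs Vdr 1.89, Npas2 3.29, Hlf 2.37, Per2 2.0, Kmt2d 4.18, Setd1b 2.25, Kdm6b 1.97, Malat1 3.30, Xist 2.84 and Mir5125 4.68. It was higher in skin for Alox12 2.68, Ptger4 1.78, Cers6 2.28, Cgn 2.77, Il1rn 1.83, Il6ra 2.7, Oas2 4.75, Mki67 1.51, Pappa 3.39, Sema5a 3.32, Slc6a2 3.77, Syt7 3.54 and Adam1a 3.60.

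It was lower in skin for the muscle genes Myoz1 -7.18, Tnni2 -5.87, Myoz2 -5.36, Csrp3 -5.19, Acta1 -7.06, Mylpf -5.68 and Des -3.06. Among respiratory chain and ribosomal genes it was Ndufb9 -2.90, Cox7c -3.39, Cox7b -2.46, Rplp2 -2.56, Rplp1 -2.02 and Rpl32 -2.19. For mast cell, matrix and chemokine genes it was Hdc -4.23, Cma1 -3.32, Dcn -1.97, Lum -2.98, Loxl1 -1.86, Timp4 -2.33, Ccl11 -2.13 and Cxcl2 -10.37, of which the value of Cxcl2 depends on the prior count because La-Cer skin had 0 counts. For the others it was Apoc3 -8.83, Mup9 -5.78, Mrpl27-ps -5.24, Hba-a2 -5.45 and Hbb-bs -4.40.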

How the results depend on the processing

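The interaction called 1948 genes with RLE, 1868 with TMM over both tissues and 1761 with limma-voom, close to 1886, but 3082 with DESeq2, 1210 without a filter, 393 with all 18 libraries and 1019 without the trend of length and GC content. Leaving out 1 library gave 49 to 2607. The mean effect called 821 genes with DESeq2, 112 with limma-voom, 2 with the trend removed (Rps16 and Myh7) and 0 to 900 when a library was left out. Genes called alike numbered 2 with DESeq2. Skin calls were 910 with DESeq2, 398 without a filter, 1 (Myl2) with only the 6 libraries compared and 0 to 1 when a library was left out. Lung calls were 2518 with DESeq2, 4005 with 6 libraries, 5948 with limma-voom, 144 with the trend removed and 0 to 332 when a library was left out. The causes of these moves were not tested.

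Same-numbered libraries had correlations of their deviations from -0.266 to 0.286, not over 0.1 in every pair of any 2 groups, and not every library correlated best with its own number, so no pairing was taken from the numbers. These are the replicate numbers of the titles. The La-Cer codes recur under the same numbers in both tissues, with correlations of 0.251, 0.211 and -0.129, while the AD codes do not run parallel to the numbers, and a block by code was not run. With the replicate number as a block the interaction called 1453 genes and lung 12, and with the block and the trend removed the interaction called 569, the mean effect 1 (Rps16) and lung 37.

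Of 1785 interaction values over 85 genes and all alternatives, 17 changed sign, in genes not called, and 268 lost their call. With the trend removed Ms4a6d was 0.05 and Tslp 0.83, and Tslp was 0.66 with the block as well. With limma-voom Igha was -0.41, Olfm2 -0.08 and Angptl4 -0.12, and Angptl4 was -0.12 with the block and -0.02 with block and trend. When a library was left out, Saa3 ran from -2.00 to 0.26, Igha from -0.34 to 0.99, Dnase1l3 from -0.54 to 0.32, Olfm2 from -0.13 to 0.59, Il33 from -0.02 to 1.02 and Angptl4 from -1.31 to 1.86.

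With 3 libraries a group, a gene that missed the threshold is not shown to act alike in both tissues.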

Other observations

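Marker sums of other cell types also moved with the groups in lung. Club and goblet cell markers summed to 32500, 21600 and 68200 CPM in AD lung and 84400, 53600 and 77200 in La-Cer lung, where replicate 3 of AD lay within the La-Cer range. Ciliated cell markers summed to 773, 598 and 1230 CPM in AD lung and 1510, 1270 and 1490 in La-Cer lung, with no overlap. B and plasma cell markers summed to 337, 288 and 211 CPM in AD lung, 726, 539 and 683 in La-Cer lung and 654, 453 and 417 in control lung. The 3 groups of markers had 0, 0 and 1 gene called by the interaction, of 4, 6 and 5 tested, against 12.3% of all genes.

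In skin, hair follicle markers ranged from 274 to 9800 CPM within AD and from 2190 to 22800 within La-Cer, and melanocyte markers from 127 to 640 and from 254 to 2970. Keratinocyte markers summed to 32000, 30300 and 15900 CPM in AD and 39300, 45200 and 26100 in La-Cer, so the groups overlapped. The part of tissue composition in the skin effects was not tested.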
